A study of Mus musculus with 196 samples.

Results

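The genes Pcgf6, L3mbtl2, E2f6, Mga, Max, Rnf2, Ring1, Ezh2, Eed and Suz12 encode subunits of the Polycomb complexes that keep germline and meiotic genes silent. They were picked by name, and all 10 were present among the 25706 endogenous genes of the table. That table gives the 3' tag reads of each gene, scaled to a common total of endogenous reads (reads per 1e+06, RPM), in 191 libraries of mouse primordial germ cell-like cells (PGCLCs) and 3 libraries of embryonic germ cells. PGCLCs were made from embryonic stem cells, sorted and expanded on m220 feeder cells, which carry membrane-bound SCF, for up to 9 days of culture. The study asked how BMP2, retinoic acid (RA) and the transcriptional regulator ZGLP1 bear on entry into the oogenic fate.

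All PGCLC lines carried the Prdm1-mVenus and Dppa3-ECFP reporters (strain label 129S1:C57BL/6=1:1), and each engineered line is 1 clone, with 2 clones each for the Zglp1-/- and the Stra8-/- genotype and 1 each for the transgenic genotypes. H18 was the parent line. OE_A2 carried a doxycycline (Dox) inducible Zglp1 coding sequence joined to mCherry, with the rtTA activator driven by EF1a. OESko_A11 carried the same transgenes and was Stra8-/-. Zko_E5 and Zko_G10 were Zglp1-/- clones, and Sko_B6 and Sko_F6 were Stra8-/- clones. Cells of day 4 of PGCLC induction were sorted for the Prdm1 reporter, and cultured cells for the Dppa3 reporter. H18 received no factor, BMP2, RA or both (B2RA), and since the H18 control libraries used here end at culture day 4, BMP2 is its reference at day 9. The knockout clones received no factor, B2RA or, for Zglp1-/-, BMP2 alone. OE_A2 received no factor (called control medium), Dox, Dox with RA (DoxRA), the serum-free media SerumMinus, SerumMinusWIN and SerumMinusWINDox, or BMS with and without Dox; BMS and WIN are names that the labels do not explain. OESko_A11 received control medium or DoxRA. The PGCLC groups numbered 98, of which 93 held 2 libraries and 5 held 1. Embryonic germ cells came from E9.5 (Dppa3-EGFP), E14.5 and E15.5 (Ddx4-RFP) embryos of ICR females, with 1 library each.

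Polycomb group proteins silence genes through histone marks. PRC1 complexes, built on the RING proteins RNF2 and RING1, place ubiquitin on histone H2A, and PRC2, with EZH2, EED and SUZ12 as its core, methylates histone H3 at lysine 27. PRC1.6 is a variant PRC1 in which PCGF6 joins a RING protein, L3MBTL2 bridges and binds chromatin, and 2 DNA-binding pairs, MGA with MAX at E-boxes and E2F6 with a DP partner at E2F sites, bring the complex to promoters of germline genes. Loss of PRC1.6 subunits in embryonic stem cells is known to release meiotic genes. In germ cells, removal of this repression is regarded as one step towards meiosis.

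The 10 genes lie on 9 mouse chromosomes (GRCm38, the mm10 build that the labels name, with GENCODE gene bounds). E2f6 spans chr12:16810963-16839742 on the plus strand, Mga chr2:119897228-119969581 on the plus strand, Max chr12:76937269-76962201 on the minus strand, Pcgf6 chr19:47033617-47050906 on the minus strand and L3mbtl2 chr15:81663889-81688315 on the plus strand. Rnf2 spans chr1:151458004-151500955, Ring1 chr17:34020792-34024680, Ezh2 chr6:47530139-47595341 and Eed chr7:89954654-89980983, all on the minus strand, and Suz12 chr11:79993106-80034123 on the plus strand. L3mbtl2 shares 10020 bases with Chadl and Rnf2 shares 158 bases with Trmt1l; whether counting used the strand is not given in the sources used here, so reads of these pairs cannot be told apart.

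The sequences that bear on these genes are the sites by which PRC1.6 reads DNA. The E-box CACGTG and the E2F core TCCCGC, which reads GCGGGA on the other strand, were searched on both strands in RefSeq promoter windows (GRCm38.p6, 250 bases before to 50 after each gene's start). Over all 32851 windows, 7.15% held the E-box, 20.0% the E2F core and 1.99% both. All 10 genes had a window: Max held an E-box, and E2f6, Rnf2 and Suz12 an E2F core. Of 20 germline genes known as PRC1.6 targets, 17 had a window, of which 9 held an E-box, 10 an E2F core and 6 both (Mael, Slc25a31, Hormad1, Stag3, Sycp3 and Ddx4). The 250 bases before the start are printed for the 2 genes of the complex that moved in opposite directions (E2f6 and Mga) and for 2 meiotic targets that hold both motifs, Hormad1 and Sycp3, which encode proteins of the meiotic chromosome axis. Capitals mark the motifs, and all 4 sequences are on the plus strand.
E2f6, chr12:16810715-16810964: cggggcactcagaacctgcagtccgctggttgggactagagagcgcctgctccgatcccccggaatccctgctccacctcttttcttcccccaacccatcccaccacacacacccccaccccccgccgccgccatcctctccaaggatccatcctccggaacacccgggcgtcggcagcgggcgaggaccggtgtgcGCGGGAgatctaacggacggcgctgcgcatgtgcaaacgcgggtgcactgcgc
Mga, chr2:119896978-119897227: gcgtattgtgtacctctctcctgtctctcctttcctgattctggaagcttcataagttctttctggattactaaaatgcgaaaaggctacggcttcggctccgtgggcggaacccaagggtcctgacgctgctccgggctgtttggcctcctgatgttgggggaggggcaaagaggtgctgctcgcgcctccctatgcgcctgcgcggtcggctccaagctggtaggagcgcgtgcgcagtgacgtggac
Hormad1, chr3:95559427-95559676: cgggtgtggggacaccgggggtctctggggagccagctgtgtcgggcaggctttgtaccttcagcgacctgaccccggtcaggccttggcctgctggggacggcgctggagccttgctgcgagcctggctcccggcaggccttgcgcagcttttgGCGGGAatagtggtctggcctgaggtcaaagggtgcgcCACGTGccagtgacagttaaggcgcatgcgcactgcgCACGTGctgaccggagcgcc
Sycp3, chr10:88459337-88459586: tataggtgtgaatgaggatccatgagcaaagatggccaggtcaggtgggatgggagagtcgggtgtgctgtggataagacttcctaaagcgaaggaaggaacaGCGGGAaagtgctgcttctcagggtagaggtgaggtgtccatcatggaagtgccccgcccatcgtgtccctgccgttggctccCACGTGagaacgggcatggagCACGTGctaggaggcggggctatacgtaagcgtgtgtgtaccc
The E2F core of E2f6 begins 53 bases before the start, and the window of Mga holds neither motif. In Hormad1 the E2F core begins 95 and the E-boxes 57 and 20 bases before the start, and in Sycp3 the E2F core begins 147 and the E-boxes 64 and 43 bases before it. A match is a description of these letters and shows no binding.

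Libraries held 877040 to 5196593 endogenous reads, so that 1 read was worth 0.192 to 1.14 RPM. The transgene's mCherry row stood at 925 to 17415 RPM in OE_A2 libraries given Dox (median 4296) and at 43.5 to 557 RPM without it. In OESko_A11 it stood at 305 to 5863 RPM with Dox (median 891) and at 150 to 329 RPM without it, ranges that overlap over all days. At day 9 the row held 4609 and 1720 RPM in OE_A2 and 5863 and 3819 RPM in OESko_A11 with DoxRA, against 406 and 162 RPM and 180 and 173 RPM in control medium. It stood at most at 2.09 RPM in lines without the transgene. Zglp1 and Stra8 tags were not used to check the knockouts, because which bases were removed is not stated and 3' tags can lie outside them. Among the labelled samples, no line without the transgene received Dox. In OE_A2, the Dox and DoxRA libraries of days 4, 5 and 7 were extracted under another protocol text than their controls, except for part of the DoxRA libraries of day 7, so at those days protocol and induction cannot be told apart. All day 9 libraries share 1 protocol. At day 9, the summed level of 8 germ cell markers lay between 1061 and 3528 RPM, that of 15 feeder and stroma markers between 103 and 1060 RPM, and that of 10 gonadal soma markers between 2.84 and 239 RPM, with the Sertoli marker Amh at 0 in every group.

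Tests used limma on log2(RPM + 1) with 1 fit over all PGCLC libraries. A change passed at an adjusted p (Benjamini-Hochberg over all genes tested) under 0.05, and fold changes are differences on that log2 scale. Each group of 2 libraries borrows its spread from all groups. The labels do not say whether replicates were separate cultures, so p-values measure only the spread between these libraries.

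E2f6, the DNA-binding subunit that reads E2F sites, had its lowest day 9 means in OE_A2 with DoxRA and in H18 with B2RA. In OE_A2 at day 9, E2f6 stood at 24.8 and 25.5 RPM in control medium, at 20.2 and 21.2 RPM with Dox, and at 11.8 and 2.39 RPM with DoxRA. Both DoxRA libraries lay below all 4 others. The difference between DoxRA (7.12 ± 6.68 RPM, SD, n = 2) and control (25.1 ± 0.516 RPM, n = 2) was -1.99 on the log2 scale (SE 0.348, adjusted p = 5.41e-07), and 4 of the 10 genes passed in this comparison, against 62.2% of all 9517 genes tested. In bulk libraries, fewer cells of a type and less RNA per cell cannot be told apart. The lower DoxRA library rests on 3 reads (95% Poisson interval 0.493 to 6.99 RPM, counting error only), and without it the difference was -1.03 (adjusted p = 0.0239). Feeder and stroma markers summed to 103 and 613 RPM in the DoxRA libraries and 242 and 258 RPM in control, with 1 higher and 1 lower of 5 tested. Lum was at 0 in both groups and Pdgfrb at 0 with DoxRA, and the gonadal soma sum was 4.62 to 11.2 RPM with DoxRA and 15.1 to 20.3 RPM in control. Germ cell markers summed to 3002 and 3059 RPM with DoxRA and 1885 and 2528 RPM in control, with 2 higher and 5 lower of 7 tested (median -1.56); the list holds Dazl and Ddx4, which rise among the target genes. The part of these markers in the result was not tested.

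Against Dox alone, DoxRA gave an E2f6 difference of -1.72 (adjusted p = 6.64e-05), in a comparison in which 2 of the 10 genes and 25.1% of all genes passed. This call was lost without the second DoxRA library (-0.76, adjusted p = 0.194), and the difference was -2.68 without the first. Dox alone, without RA, passed for none of the 10 genes by limma at day 9 (0 at an adjusted p under 0.05, 34.8% of all genes, changes of -0.38 to 0.54). Rnf2 was the only one of them with an unadjusted p under 0.05 in that comparison, and no alternative setting other than a fit restricted to the groups compared gave a call.

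The parent line showed a fall of E2f6 too. H18 libraries held 30.5 and 29.7 RPM with BMP2 and 19.9 and 8.70 RPM with B2RA at day 9. The groups did not overlap, and the difference was -1.13 (SE 0.348, adjusted p = 0.0109), the only pass among the 10 genes (25.4% of all genes). Without the second B2RA library the difference was -0.57 (adjusted p = 0.368), and without the second BMP2 library the call was lost at an adjusted p of 0.121. Gonadal soma markers summed to 239 and 55.6 RPM with B2RA and 11.2 and 9.72 RPM with BMP2, 2 of 2 tested genes being higher, with Amh and Nr5a1 at 0 in both groups and Wt1 and Lhx9 at 0 with BMP2. Feeder and stroma markers summed to 919 and 295 RPM against 168 and 428 RPM, with 3 higher of 8 tested. Germ cell markers summed to 2879 and 2750 RPM against 2887 and 3528 RPM, with 5 lower and none higher of 7 tested (median -2.29). The part of these markers in the result was not tested.

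Knockout of Zglp1 went with higher E2f6 under B2RA, and that of Stra8 did so less clearly. The 4 Zglp1-/- libraries held 22.2 to 42.0 RPM (33.2 ± 10.1, n = 4) against 14.3 ± 7.89 RPM (n = 2) in H18. No Zglp1-/- library reached as low as H18, and the difference was 1.22 (SE 0.302, adjusted p = 3.5e-04), with 3 of 10 genes and 55.4% of all genes passing. The 4 Stra8-/- libraries held 18.3 to 29.4 RPM (23.0 ± 4.66) and overlapped H18, with a difference of 0.74 (adjusted p = 0.0399), among 4 of 10 genes and 43.5% of all genes passing. By clone, Sko_B6 held 21.6 and 18.3 RPM, and E2f6 did not pass for it alone against H18. None of the 10 genes was higher there (0, with 16.2% of all genes higher). Sko_F6 held 22.7 to 29.4 RPM. Of 8 germ cell markers tested, 6 were higher and 2 lower in each knockout against H18 (medians 1.59 and 1.57), and their part was not tested. Both calls depend on the second H18 library, and without it the differences were 0.66 (adjusted p = 0.154) and 0.18 (adjusted p = 0.748). The Stra8-/- call was also lost without single Stra8-/- libraries, and the difference was 1.29 without the first H18 library. Within the knockout clones, B2RA against control medium moved E2f6 by 0.06 (adjusted p = 0.886) in Zglp1-/- and by -0.41 (adjusted p = 0.165) in Stra8-/- clones, neither past the threshold.

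The Stra8-/- clone with the transgene gave an E2f6 difference that did not pass. In OESko_A11 the gene stood at 32.3 and 23.6 RPM in control medium and 17.1 and 24.2 RPM with DoxRA at day 9, overlapping ranges (difference -0.42, adjusted p = 0.376). The DoxRA response of OE_A2 minus that of OESko_A11 was -1.57 (SE 0.493, adjusted p = 0.0138) for E2f6, the only 1 of the 10 genes whose response differed (22.2% of all genes). This sets 1 clone against 1 other, so genotype and clone cannot be told apart. It fell to -0.61 (adjusted p = 0.448) without the OE_A2 library of 3 reads, was -2.53 without the other DoxRA library, and missed the threshold without the second control or second DoxRA library of OESko_A11 (adjusted p = 0.0768 and 0.0876). edgeR on the recovered reads gave -0.97 (adjusted p = 0.179).

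Mga encodes the large scaffold that pairs with MAX at E-boxes, and its highest day 9 means were in the same 2 groups, OE_A2 with DoxRA and H18 with B2RA. At day 9 in OE_A2, Mga stood at 39.2 and 65.4 RPM in control medium, at 70.1 and 51.0 RPM with Dox and at 91.0 and 155 RPM with DoxRA. The DoxRA libraries lay above all others of the clone. The difference between DoxRA (123 ± 45.6 RPM) and control (52.3 ± 18.5 RPM, n = 2 each) was 1.21 (SE 0.383, adjusted p = 0.00418), and between DoxRA and Dox 0.98 (adjusted p = 0.0482). The first call was lost without the first control library (0.85, adjusted p = 0.122) or the second DoxRA library (0.83, adjusted p = 0.126). The second was lost without either Dox library or the second DoxRA library (0.60, adjusted p = 0.412).

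In H18 under B2RA at day 9, Mga reached 102 and 110.0 RPM, against 74.1 and 60.9 RPM with BMP2. These groups did not overlap, but the difference of 0.65 did not pass (adjusted p = 0.214). The 4 Zglp1-/- libraries under B2RA held 15.2 to 59.5 RPM (36.5 ± 18.1), all below H18, and the difference of -1.66 (SE 0.332, adjusted p = 1.2e-05) passed for both clones, Zko_E5 at -2.15 (53.8% of all genes) and Zko_G10 at -1.16 (47.4%). The 4 Stra8-/- libraries held 40.4 to 52.7 RPM (47.8 ± 5.99), also all below H18, with a difference of -1.14 (SE 0.332, adjusted p = 0.00348). Both of these calls held under each alternative setting and each library left out. The lowest Zglp1-/- value, in the second Zko_E5 library, rests on 15 reads (95% Poisson interval 8.52 to 25.1 RPM). Within the knockout clones B2RA against control moved Mga by -0.30 (adjusted p = 0.454) in Zglp1-/- and 0.37 (adjusted p = 0.276) in Stra8-/- clones. These comparisons with H18 and those of H18 with itself share the same B2RA libraries. Gonadal soma sums under B2RA were 37.1 to 61.6 RPM in Zglp1-/- and 31.5 to 99.6 RPM in Stra8-/- clones, against 55.6 and 239 RPM in H18. Feeder and stroma sums were 543 to 1034 RPM, 383 to 1017 RPM, and 295 and 919 RPM, and their part was not tested.

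**Figure D1:**
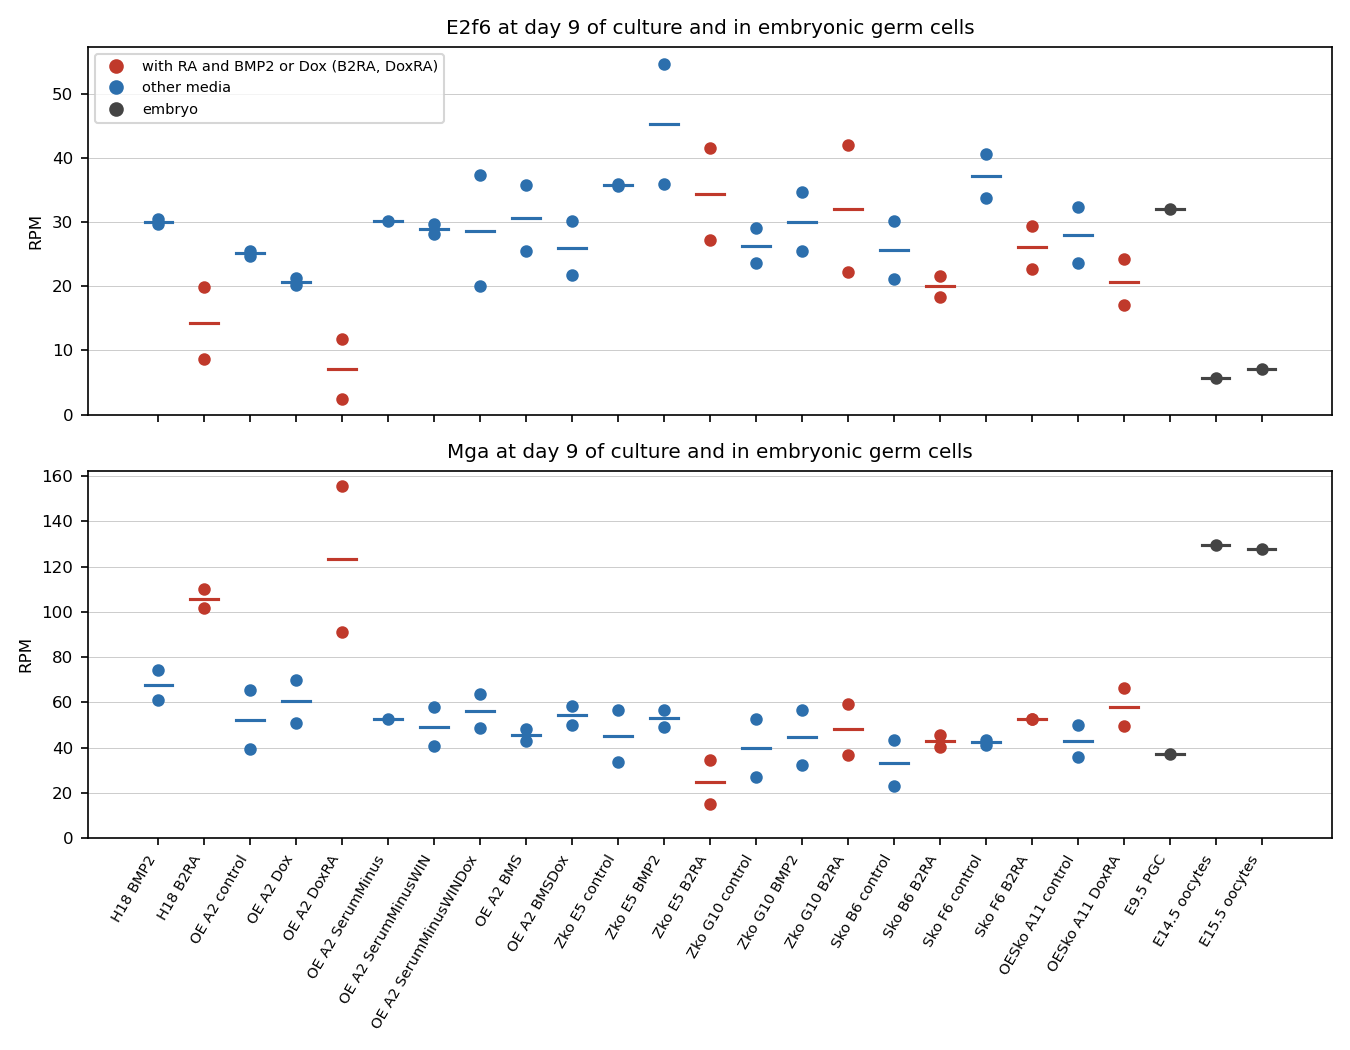
E2f6 and Mga in every library of the day 9 PGCLC groups and the embryonic germ cells, in RPM, with points for libraries, bars for group means, red for B2RA and DoxRA and blue for other media. OE_A2 with DoxRA and H18 with B2RA have the 2 lowest E2f6 means of the day 9 groups (7.12 and 14.3 RPM) and the 2 highest Mga means (123 and 106 RPM).

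Ordered by mean, the 22 groups of day 9 ran for E2f6 from 7.12 RPM (OE_A2, DoxRA) to 45.3 ± 13.2 RPM (Zko_E5, BMP2), and for Mga from 24.9 ± 13.6 RPM (Zko_E5, B2RA) to 123 RPM (OE_A2, DoxRA). Between these ends, the groups from 20.0 to 37.2 RPM for E2f6 and from 33.3 to 67.5 RPM for Mga formed a continuous series. The plot of E2f6 and Mga at day 9 shows that most neighbours in it overlap. Over all 191 libraries E2f6 ranged from 2.39 to 54.7 RPM (median 29.4) and Mga from 10.8 to 155 RPM (median 36.7). Across the 98 group means, each clone's mean taken off, Pearson's r between them was -0.41, over points that share clones and library depth.

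Max encodes the small partner of MGA and of MYC proteins, and it fell with DoxRA in control medium and with Dox in the WIN medium. In OE_A2 at day 9, Max stood at 52.3 and 67.5 RPM in control medium, 50.7 and 50.1 RPM with Dox and 45.6 and 20.7 RPM with DoxRA. The DoxRA libraries were the lowest of the 6. DoxRA against control gave -0.93 (SE 0.289, adjusted p = 0.00382), which was -0.37 (adjusted p = 0.368) without the second DoxRA library, -1.48 without the first, and lost without the second control library (adjusted p = 0.0697). In the serum-free WIN medium, Max stood at 73.4 and 71.0 RPM without Dox and 45.7 and 36.6 RPM with it. The groups did not overlap, and the difference of -0.80 passed (adjusted p = 0.0222), among 3 of 10 genes and 35.4% of all genes. It missed the threshold without either uninduced library or without the second induced library. BMS gave the same order of values, 79.9 and 72.9 RPM against 49.7 and 52.1 RPM with Dox, with a difference of -0.58 that did not pass (adjusted p = 0.115) but did with TMM scaling (-0.85, adjusted p = 0.0155).

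Pcgf6, which defines the PRC1.6 complex, varied least between groups among the PRC1.6 genes listed. Its group means differed at most 2.40-fold, from 53.9 ± 2.28 RPM (Zko_E5, B2RA, day 7) to 129 ± 17.0 RPM (Zko_G10, BMP2, day 7). It passed only once among the 14 main comparisons. Under B2RA at day 9, the 4 Stra8-/- libraries held 64.2 to 72.5 RPM (66.8 ± 3.88), all below H18 at 91.8 and 111 RPM. The difference was -0.59 (SE 0.219, adjusted p = 0.0225), and it was lost without the second H18 library (-0.46, adjusted p = 0.218) or the second Sko_F6 library (adjusted p = 0.0545). In OE_A2 with DoxRA, Pcgf6 held 65.0 and 108 RPM, overlapping control (56.1 and 82.3 RPM).

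L3mbtl2, the malignant brain tumour domain protein of PRC1.6 that binds chromatin, fell under B2RA in the Zglp1-/- clones. Zko_E5 held 94.9 and 73.2 RPM in control medium and 45.8 and 21.3 RPM with B2RA at day 9. The lower B2RA value rests on 21 reads (95% Poisson interval 13.2 to 32.6 RPM) in a library of 985914 reads. Zko_G10 held 75.5 and 116 RPM in control medium and 45.6 and 59.2 RPM with B2RA. All 4 B2RA libraries lay below all 4 controls, the difference was -1.11 (SE 0.180, adjusted p = 6.05e-07), with -1.38 in Zko_E5 and -0.84 in Zko_G10, and L3mbtl2 was the only 1 of the 10 genes to pass (26% of all genes). The call held in each alternative. With BMP2 alone at day 9, Zko_G10 held 59.7 and 54.6 RPM, near its B2RA values. Zko_E5 with BMP2 averaged 84.3 RPM, near its control mean of 84.0 RPM. BMP2 against control did not pass over both clones, and B2RA against BMP2 was not tested in them. Means were also low in OE_A2, at 55.8 RPM with Dox and 50.8 RPM with DoxRA. Its control mean was 67.1 RPM, and neither difference passed. Chadl, which overlaps the gene, stood at 0.83 to 22.0 RPM over the day 9 libraries. Gonadal soma markers in the Zglp1-/- libraries summed to 37.1 to 61.6 RPM with B2RA and 6.23 to 33.9 RPM in control medium. Of these markers, 2 of 2 tested were higher. Feeder and stroma sums were 543 to 1034 RPM against 645 to 848 RPM, with none passing of 9 tested, Amh was at 0 throughout, and their part was not tested.

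In the Stra8-/- clones L3mbtl2 did not pass: Sko_B6 held 82.3 and 74.8 RPM in control medium and 82.4 and 63.8 RPM with B2RA, and Sko_F6 116 and 90.2 RPM against 105 and 69.5 RPM. Their difference was -0.19 (95% interval -0.54 to 0.17, adjusted p = 0.417), although TMM scaling gave -0.47 (adjusted p = 0.0287). The B2RA response of the Stra8-/- minus that of the Zglp1-/- clones was 0.92 (SE 0.255, adjusted p = 0.00897), the only difference in response among the 10 genes (11.8% of all genes). Without the second B2RA library of Zko_E5 it was 0.66 (adjusted p = 0.119). H18 under B2RA held 70.7 and 84.5 RPM, above all 4 Zglp1-/- libraries (difference of knockout from H18 -0.92, SE 0.220, adjusted p = 2.22e-04), although for Zko_G10 alone the difference did not pass.

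RNF2 (RING1B) is the main catalytic RING protein of PRC1 in embryonic cells. Rnf2 rose with DoxRA in control medium: OE_A2 held 91.9 and 117 RPM in control, 143 and 160 RPM with Dox and 167 and 167 RPM with DoxRA at day 9. Neither induced group overlapped control. DoxRA against control passed at 0.68 (SE 0.242, adjusted p = 0.0112), and was lost without the first control library (adjusted p = 0.149), while Dox against control did not pass (0.54, adjusted p = 0.0712). At day 4 Rnf2 passed with Dox (0.90, with 15.8% of all genes) and DoxRA (0.76, 22.6%), and at day 5 with DoxRA (0.72, 36.3%), where protocol and induction cannot be told apart. At day 7 the rise was not seen: control held 160 and 151 RPM, Dox 130 and 131 RPM and DoxRA 151 and 145 RPM. Neither induced mean was above control at that day, and neither difference passed. With Dox in the WIN and BMS media the differences at day 9 were -0.16 and 0.05, and in OESko_A11 with DoxRA 0.06, none past the threshold.

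RING1 (RING1A) is the paralogous RING protein, and Ring1 was the weakest signal of the 10, under 10 RPM in 28 of the 191 libraries and at 0 in 1. In BMS medium at day 9 it stood at 1.88 and 10.7 RPM without Dox and 17.7 and 17.0 RPM with Dox. The groups did not overlap, and the difference of 1.66 passed (SE 0.504, adjusted p = 0.00666), among 3 of 10 genes and 33.4% of all genes. The lowest library rests on 5 reads (95% Poisson interval 0.609 to 4.38 RPM), and without it the difference was 0.65 (adjusted p = 0.489), against 2.68 without the other BMS library. At day 7, BMS held 7.53 and 8.84 RPM without Dox and 26.7 and 20.6 RPM with it, a difference of 1.42 that passed (25.8% of all genes). The highest libraries of all were those of OESko_A11 with DoxRA at day 9, at 46.2 and 36.3 RPM against 13.8 and 22.0 RPM in control, with a difference of 1.19 that missed the threshold (adjusted p = 0.0612) but passed with a pseudocount of 5 (adjusted p = 0.0143).

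EZH2 is the methyltransferase of PRC2, EED the subunit that binds its product, and SUZ12 the scaffold. With Dox, Ezh2 and Suz12 fell in BMS medium, and Eed and Suz12 in the WIN medium. In BMS medium at day 9, Ezh2 stood at 239 and 231 RPM without Dox and 139 and 148 RPM with it, and Suz12 at 367 and 273 RPM against 174 and 148 RPM. Neither pair overlapped, and both fell past the threshold, Ezh2 by 0.71 (SE 0.228, adjusted p = 0.0103) and Suz12 by 0.98 (SE 0.309, adjusted p = 0.00946). Eed held 157 and 140 RPM against 92.3 and 99.4 RPM, a difference of -0.63 that did not pass (adjusted p = 0.0733) but did with TMM scaling (adjusted p = 0.00605). Ezh2 lost its call without the first BMS or first BMSDox library (adjusted p = 0.0771 and 0.0710), and Suz12 without the first BMS or second BMSDox library (adjusted p = 0.157 and 0.107).

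In the serum-free WIN medium, Eed stood at 176 and 144 RPM without Dox and 99.5 and 91.0 RPM with it, and Suz12 at 255 and 262 RPM against 176 and 118 RPM. Again no group overlapped. Eed fell by 0.74 (SE 0.279, adjusted p = 0.0300) and Suz12 by 0.84 (SE 0.309, adjusted p = 0.0266), whereas Ezh2 (222 and 219 against 168 and 171 RPM) moved by -0.38 without passing (adjusted p = 0.196). Each of these calls was lost when 1 of 3 libraries was left out, at adjusted p of 0.0604 to 0.340. In control medium, Dox gave -0.20 for Ezh2, -0.13 for Eed and -0.38 for Suz12, none past the threshold. The Dox response in BMS or WIN medium minus that in control medium, a test added after these values were seen, passed for none of the 10 genes by limma, with 1.71% and 0.01% of all genes passing. A difference between the media was thus not shown.

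**Figure D2:**
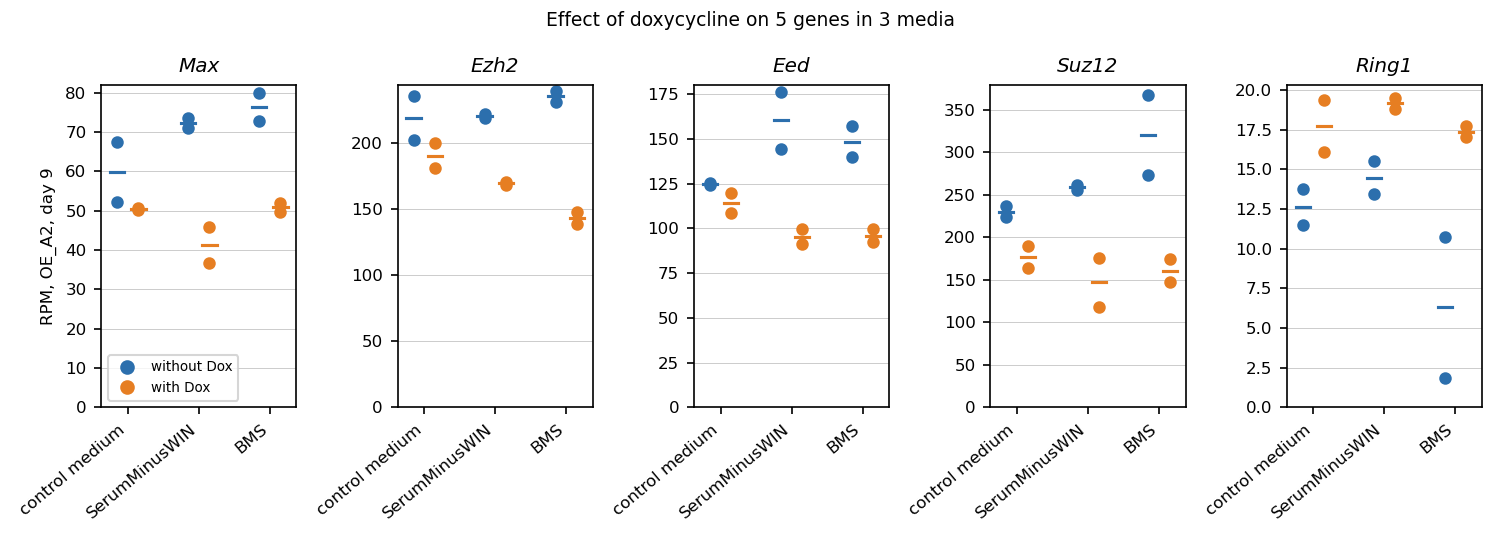
Max, Ezh2, Eed, Suz12 and Ring1 in OE_A2 at day 9, in RPM, with points for libraries and bars for group means, without and with Dox in control, SerumMinusWIN and BMS medium. In the BMS medium Suz12 falls from 367 and 273 RPM to 174 and 148 RPM, while in control medium it goes from 223 and 237 RPM to 190 and 164 RPM, a change that did not pass.

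Suz12 also fell in Stra8-/- cells given DoxRA or B2RA. OESko_A11 held 210 and 198 RPM in control medium and 109 and 84.2 RPM with DoxRA at day 9, a difference of -1.08 (SE 0.309, adjusted p = 0.00449), the only pass of the 10 genes (30.8% of all genes). This was lost without the second DoxRA library (adjusted p = 0.0768). In the Stra8-/- clones Suz12 fell from 211 and 252 RPM to 126 and 112 RPM in Sko_B6, and from 158 and 223 RPM to 84.6 and 114 RPM in Sko_F6, when B2RA was given. All 4 B2RA libraries lay below all 4 controls, and the difference of -0.94 (SE 0.219, adjusted p = 2.18e-04) held in each refit and with each library left out, though it is under 1 on the log2 scale, with 2 of 10 genes and 45.7% of all genes passing. In OE_A2 with DoxRA, where Stra8 is intact, the 2 libraries disagreed at 148 and 314 RPM around control at 223 and 237 RPM (difference -0.09, adjusted p = 0.807). The DoxRA response of OE_A2 minus that of OESko_A11 was 0.99 for Suz12 and did not pass (adjusted p = 0.0905), whereas TMM scaling gave 1.12 (adjusted p = 0.0352) and edgeR 1.16 (adjusted p = 0.0312). In the Zglp1-/- clones, B2RA against control moved Suz12 by -0.50 without passing by limma (adjusted p = 0.0783). There TMM scaling gave -0.67 (adjusted p = 0.00941) and edgeR -0.66 (adjusted p = 0.0100). The B2RA response of Stra8-/- minus Zglp1-/- clones did not pass for Suz12, so a fall particular to Stra8-/- cells was not shown.

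Eed was the other gene to fall with B2RA in the Stra8-/- clones, from 103 and 89.1 RPM to 56.9 and 56.3 RPM in Sko_B6. In Sko_F6 it held 123 and 102 RPM against 84.6 and 116 RPM, which overlap. The difference over both clones was -0.46 (SE 0.198, adjusted p = 0.0460), lost in 6 of the 8 fits that left out 1 library. With TMM scaling 6 of the 10 genes were lower in this comparison, L3mbtl2, E2f6, Max and Ezh2 joining Eed and Suz12 (adjusted p = 5.1e-04 to 0.0287 for the 4), and edgeR on recovered reads called these 4 as well. TMM scaling also moved the median of all genes by -0.30 there. Against H18 under B2RA, Eed was lower in the Stra8-/- clones by 0.65 on the log2 scale (adjusted p = 0.0221), through Sko_B6 (-1.05). This call was lost without either H18 library or without the first Sko_F6 library. Gonadal soma sums in the Stra8-/- clones were 31.5 to 99.6 RPM with B2RA and 2.84 to 16.4 RPM in control, with 2 of 2 tested higher. Feeder and stroma sums were 383 to 1017 RPM and 466 to 1060 RPM with 1 of 9 tested higher, Amh was at 0 throughout, and their part was not tested.

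Set over the 14 main comparisons, the 10 genes passed 30 times in 140 tests. The median change of the 10 genes lay between -0.36 and 0.19 and that of all genes between -0.17 and 0.23, and in no comparison did the share of the 10 genes that passed exceed that of all genes. Passes fell on single subunits: in OE_A2 with DoxRA, Mga and Rnf2 were higher while E2f6 and Max were lower. Of the 2 DoxRA libraries, the second (1254508 reads) held the more extreme values of E2f6, Max and Mga. Without it their differences from control were -1.03, -0.37 and 0.83, so the size of these changes leans on that library.

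**Figure D3:**
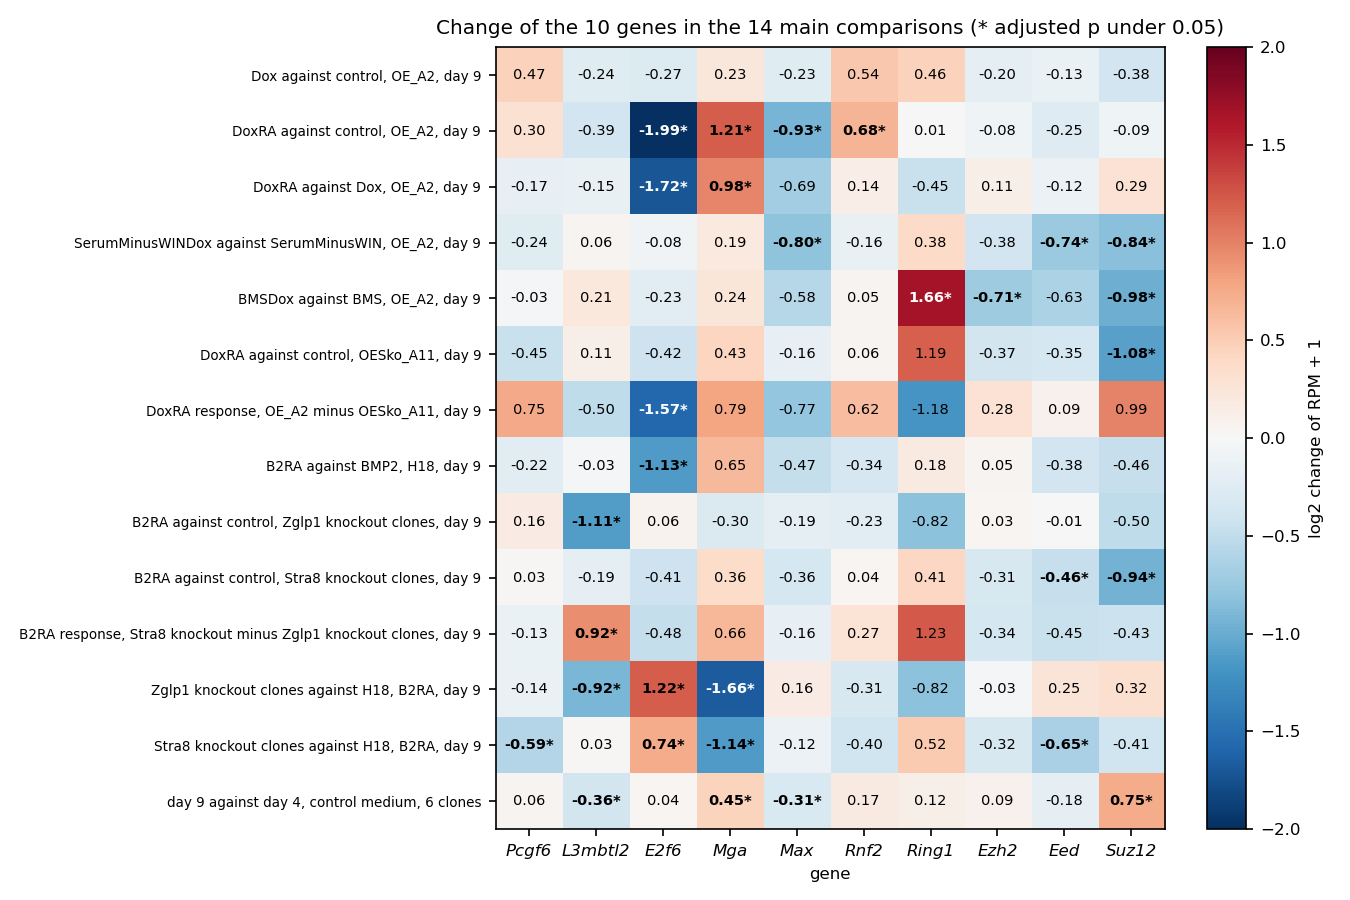
Change on the log2 scale of the 10 genes (columns) in the 14 main comparisons (rows), coloured from -2 to 2, with an asterisk at an adjusted p under 0.05. E2f6 is -1.99 in DoxRA against control and 1.22 in Zglp1-/- clones against H18 under B2RA, and Mga has the opposite sign in both.

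Levels in control medium drifted with time in culture. Over the 6 clones, Suz12 rose from 138 ± 35.3 RPM at day 4 to 230.3 ± 50.2 RPM at day 9 (n = 12 each, change 0.75, SE 0.126, adjusted p = 3.52e-07), and Mga from 31.1 ± 10.2 to 42.6 ± 12.2 RPM (0.45, adjusted p = 0.0129). L3mbtl2 fell from 108 ± 15.9 to 84.2 ± 17.9 RPM (-0.36, adjusted p = 0.00204) and Max from 92.4 ± 20.4 to 74.2 ± 16.8 RPM (-0.31, adjusted p = 0.0219). The ranges of libraries overlapped for all 4 genes, and 4 of 10 passed against 50.5% of all genes. E2f6 stayed at 29.5 ± 9.24 and 29.7 ± 6.07 RPM (change 0.04, 95% interval -0.24 to 0.32). Feeder and stroma markers rose over the same days, 7 higher of 10 tested, and their part was not tested. Max lost its call without any 1 of 4 libraries and Mga without the second Zko_G10 library of day 9 (0.37). Mga also lost its call with TMM scaling (0.33, adjusted p = 0.0570). In Zko_G10 its mean went from 48.5 RPM at day 4 to 39.9 RPM at day 9, while it rose in the other clones.

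The E2f6 and Mga values of OE_A2 with DoxRA lay furthest apart at day 9. The DoxRA libraries of days 4 and 5 have another protocol text than those of day 9, and day 7 holds both. Day and protocol thus cannot be told apart in this series. E2f6 stood at 37.3 and 36.5 RPM at day 4, 28.5 and 27.6 RPM at day 5, 5.84 and 23.3 RPM at day 7 and 11.8 and 2.39 RPM at day 9. The lower day 7 library rests on 10 reads (95% Poisson interval 2.80 to 10.7 RPM). The difference from control passed at day 7 (-1.14, with 54.1% of all genes), together with Ezh2 (-0.63) and Suz12 (-0.83), at a day when the protocols are partly mixed. Mga stood at 20.2 and 32.7 RPM at day 4, 41.5 and 36.2 RPM at day 5, 64.2 and 59.7 RPM at day 7 and 91.0 and 155 RPM at day 9. In H18 with B2RA, Mga was at 33.5 and 17.7 RPM at day 5, 63.3 and 40.3 RPM at day 7 and 102 and 110.0 RPM at day 9, so that the day 9 libraries were the highest of the series.

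At the earlier days few other changes passed. L3mbtl2 fell by 0.72 in OE_A2 with DoxRA at day 5 (36.3% of all genes), where protocol and induction cannot be told apart. Eed fell by 1.06 with Dox in BMS medium at day 4 (15.1% of all genes). In H18 at day 3.5, BMP2, RA and B2RA passed for none of the 10 genes by limma (0.0119%, 0% and 0% of all genes). B2RA against control passed for none of them in the Zglp1-/- clones (0.681%, 1.54% and 9.8% of all genes at days 4, 5 and 7) or the Stra8-/- clones (0.208%, 0.602% and 19.2%). None passed for H18 with B2RA against BMP2 at days 5 and 7 (0.23% and 6.53%), for Dox in control medium at days 5 and 7 (18.6% and 38.1%), for Dox in the WIN medium at days 4, 5 and 7 (5.65%, 8.2% and 31.9%), for Dox in BMS medium at day 5 (17.9%), or for OESko_A11 with DoxRA at days 4 and 7 (1.39% and 8.84%). At day 9, none passed for BMP2 against control in the Zglp1-/- clones (2.08%), or without Dox for BMS (3.39%) or SerumMinusWIN (0.022%) against control medium. In OESko_A11 with DoxRA at day 5, Suz12 and Rnf2 passed (1.19 and 0.67, 17.8% of all genes), but the first library stood apart with Suz12 at 627 against 162 RPM in the second, Mga at 90.4 against 31.4 RPM, Ezh2 at 423 against 176 RPM and E2f6 at 16.4 against 36.4 RPM. No fit without that library was run at this day, so how far these 2 calls depend on it was not tested.

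**Figure D4:**
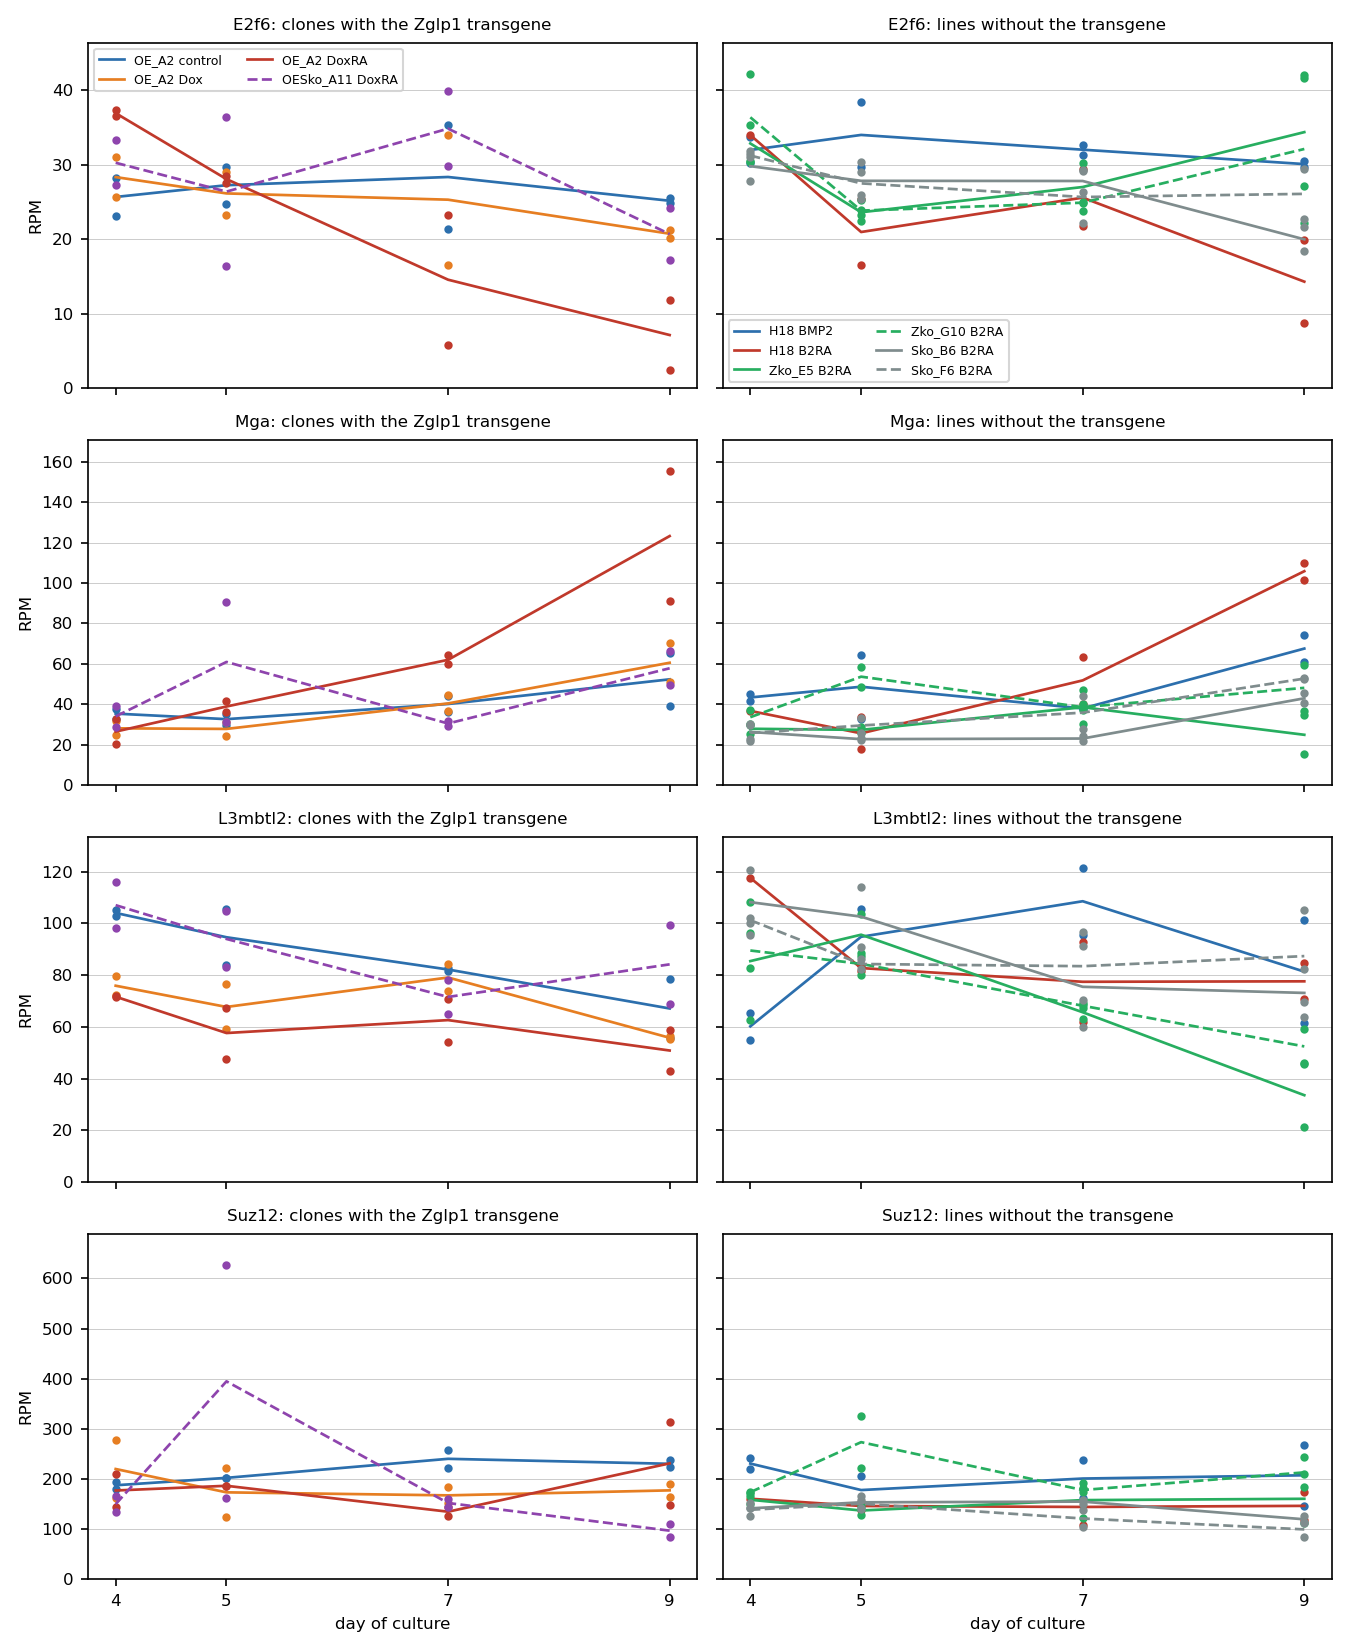
E2f6, Mga, L3mbtl2 and Suz12 in RPM at culture days 4, 5, 7 and 9, points for libraries and lines through group means, for the clones with the Zglp1 transgene (left) and for H18 and the knockout clones (right). L3mbtl2 in the Zglp1-/- clones with B2RA goes down to 33.6 and 52.4 RPM on average at day 9, and Suz12 of OESko_A11 at day 5 shows the single library at 627 RPM.

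Fetal germ cells of the embryo gave values for the same genes, with 1 library per stage and no replicate check. E2f6 was 32.0 RPM in E9.5 primordial germ cells (134 reads) and 5.76 and 7.15 RPM in E14.5 and E15.5 oocytes (19 and 20 reads), 5.57-fold and 4.48-fold lower. Mga was 37.1 RPM at E9.5 and 129.7 and 128 RPM in oocytes, past 2-fold higher at both stages. The oocyte levels of both genes lay within the range of OE_A2 with DoxRA at day 9. Max went from 94.5 RPM to 30.0 and 34.7 RPM (3.15-fold and 2.73-fold lower), and Eed from 154 RPM to 69.1 and 70.8 RPM (2.22-fold and 2.17-fold lower). The other genes changed by less than 2-fold: in E9.5, E14.5 and E15.5 in that order, Suz12 was 95.7, 85.4 and 68.3 RPM, Ezh2 238, 157 and 148 RPM, and Rnf2 95.9, 154 and 120 RPM. Of all genes, 56.3% and 58% were past 2-fold in these libraries, against 4 of the 10. These libraries come from other mouse strains and another protocol text than the day 9 PGCLCs.

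Other subunits of the same machinery were followed in lists. Of 9 tested PRC1.6 partners, 3 were higher and 2 lower in OE_A2 with DoxRA against control at day 9 (median 0.21, all genes 0.11). Of all genes, 33.4% were higher and 28.9% lower in this comparison, so the counts of this and the next lists are read against those shares, and this one is near them. Yaf2, an H2A-binding partner of the RING proteins, rose from 41.0 to 109 RPM (1.39), and its paralog Rybp by 0.86. Ehmt2, the H3 lysine 9 methyltransferase G9a, fell by 1.04 and Tfdp1, the DP partner of E2F proteins, by 0.61. Yaf2 was also higher in OESko_A11 with DoxRA (1.27), with B2RA in Zglp1-/- (1.08) and Stra8-/- clones (1.98), and at day 9 against day 4 (1.37). Ehmt2 differed: with B2RA in the Stra8-/- clones it rose by 0.61, and the DoxRA response of OE_A2 minus that of OESko_A11 was -1.11 (adjusted p = 0.0392).

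Among 8 tested accessory PRC2 genes, 2 were higher and 2 lower in OE_A2 with DoxRA (median -0.31), again no more than the general share. AU022751, the symbol for Ezhip, which encodes an inhibitor of PRC2, rose from 13.4 to 38.5 RPM (1.38). It also rose with Dox in WIN (1.43) and BMS medium (2.46), in OESko_A11 (1.48) and with B2RA in Zglp1-/- (2.09) and Stra8-/- clones (2.21). Phf19, a Polycomb-like targeting subunit, went from 30.6 to 1.09 RPM (-3.74), and Rbbp4, a histone chaperone, fell by 1.52. In the DoxRA libraries 1 read was worth 0.289 and 0.797 RPM, so Phf19 lay near the floor there. The size of its fall depends on the 1 added to RPM. Mtf2, another Polycomb-like subunit, fell with Dox in WIN (-1.12) and BMS (-0.78), in OESko_A11 (-0.96), and with B2RA in Zglp1-/- (-0.61) and Stra8-/- clones (-0.97).

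Of 18 tested genes of other PRC1 complexes, 6 were higher and 7 lower in OE_A2 with DoxRA (median 0.40), close to the general shares. Scml2, a germline-specific PRC1 partner, was the largest rise, from 37.3 to 526 RPM (3.99). It rose in each of the comparisons of treated with untreated cells and with time: Dox 2.62, Dox in WIN 1.99, Dox in BMS 2.13, OESko_A11 with DoxRA 3.06, H18 with B2RA against BMP2 1.91, B2RA in Zglp1-/- 1.88 and in Stra8-/- clones 3.54, and day 9 against day 4 1.58. Under B2RA it was lower than in H18 in Zglp1-/- (-2.39) and Stra8-/- clones (-1.69). Phc2 and Bcor, subunits of canonical PRC1 and PRC1.1, fell in OE_A2 with DoxRA by 2.18 and 1.54.

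Of 6 tested enzymes that remove Polycomb marks, 4 were higher and none lower there (median 1.20). Kdm6a, which demethylates H3 lysine 27, rose from 44.2 to 146 RPM (1.70), and its response in OE_A2 minus that in OESko_A11 was 1.62 (adjusted p = 0.00661). Under B2RA Kdm6a was far lower than H18 (181 RPM) in the Zglp1-/- (25.6 RPM, -2.77) and Stra8-/- clones (36.7 RPM, -2.36). In the MAX network, 1 gene rose and 2 fell of 6 tested. Mycn fell from 73.1 to 8.31 RPM (-3.03) and Mnt by 1.80, while the repressor Mxd4 rose with B2RA in Stra8-/- (3.57) and Zglp1-/- clones (1.84). Of 8 tested E2F family genes, E2f4 and Rbl1 rose by 0.69 and 0.83, and 3 fell, E2f7 by 2.34 and E2f8 by 1.76 among them.

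The genes that PRC1.6 is known to silence in embryonic stem cells rose with Dox, DoxRA and B2RA and with time in culture. The list of 20 holds cohesin and axis genes (Stag3, Smc1b, Sycp3, Hormad1), piRNA pathway genes (Mael, Tdrkh, Mov10l1), meiotic factors (Meioc, Meiob, Majin) and other germline genes (Ddx4, Dazl, Tex101). With Dox alone, where none of the 10 subunit genes passed, 18 of 20 rose and none fell (median 2.50, all genes 0.06), while 19.9% of all genes were higher. Tex101, a germ cell surface protein, went from 44.1 to 855 RPM (4.26) and Meiob, a meiotic recombination factor, from 8.48 to 176 RPM (4.25). A gene could enter a comparison through its higher group alone, as Meiob did here with a control mean under 10 RPM. For such genes the filter favours that direction. With no filter on low values, 18 of 20 rose with Dox alone as well. With DoxRA 19 rose (median 3.20, with 33.4% of all genes higher), with Dox in WIN medium 18 (2.95, 19.6%), with Dox in BMS medium 20 (2.65, 23.5%) and in OESko_A11 with DoxRA 18 (2.48, 20.8%), and none fell in any of these.

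Sycp3, whose promoter is printed above, stood at 47.2 and 196 RPM in control medium, at 1451 and 1462 RPM with Dox and at 1645 to 2801 RPM with DoxRA. Hormad1 stood at 71.6 and 91.3 RPM, 356 and 386 RPM, and 684 to 827 RPM. Both induced groups lay above control for both genes. DoxRA against Dox moved only 4 of 20 past the threshold (median 0.68, all genes 0.08), with 9.94% of all genes higher, among them Stag3 (1.02) and Mov10l1 (0.98); this count ranged from 0 to 5 when single libraries were left out, and was 0 without the second DoxRA or second Dox library.

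With BMP and RA, 14 of 19 tested target genes rose in H18 against BMP2 (median 1.38, with 13.7% of all genes higher), a count that was 1 without the second BMP2 library. In the Zglp1-/- clones 14 of 17 rose with B2RA (1.05, with 16.5% of all genes higher) and in the Stra8-/- clones 20 of 20 (2.81, 32.9%). The Zglp1-/- count was 11 with TMM scaling and 9 at a change of at least 1, while the Stra8-/- count stayed at 20 in both. The responses differed: the Stra8-/- minus the Zglp1-/- response was higher for 16 of 20 (median 1.85, all genes 0.12) and lower for none, with 9.03% of all genes higher. Against H18 under B2RA, 18 of 20 were lower in the Zglp1-/- clones (median -2.88, all genes -0.09, with 30.8% of all genes lower), Sycp3 at 49.8 to 100.4 RPM against 1514 to 1879 RPM among them, and 17 lower with 1 higher, Tuba3b, in the Stra8-/- clones (median -1.61, with 23% of all genes lower). Only 18 target genes reached the filter in the Zglp1-/- comparison when either H18 library was left out. The others entered through H18, where they are high, so their direction was not free. With no filter, 18 of 20 were lower as well. In control medium alone, 15 of 18 rose from day 4 to day 9 (31.3% of all genes higher). The DoxRA response of OE_A2 minus OESko_A11 was higher for 5 of 20 and lower for none (median 0.52, all genes -0.17, with 6.11% of all genes higher), the largest being Meiob (2.73) and Tdrkh (2.09); the count was 1 to 7 when single libraries were left out, and 1 without the first OE_A2 control, the second OE_A2 DoxRA or the second OESko_A11 DoxRA library.

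**Figure D5:**
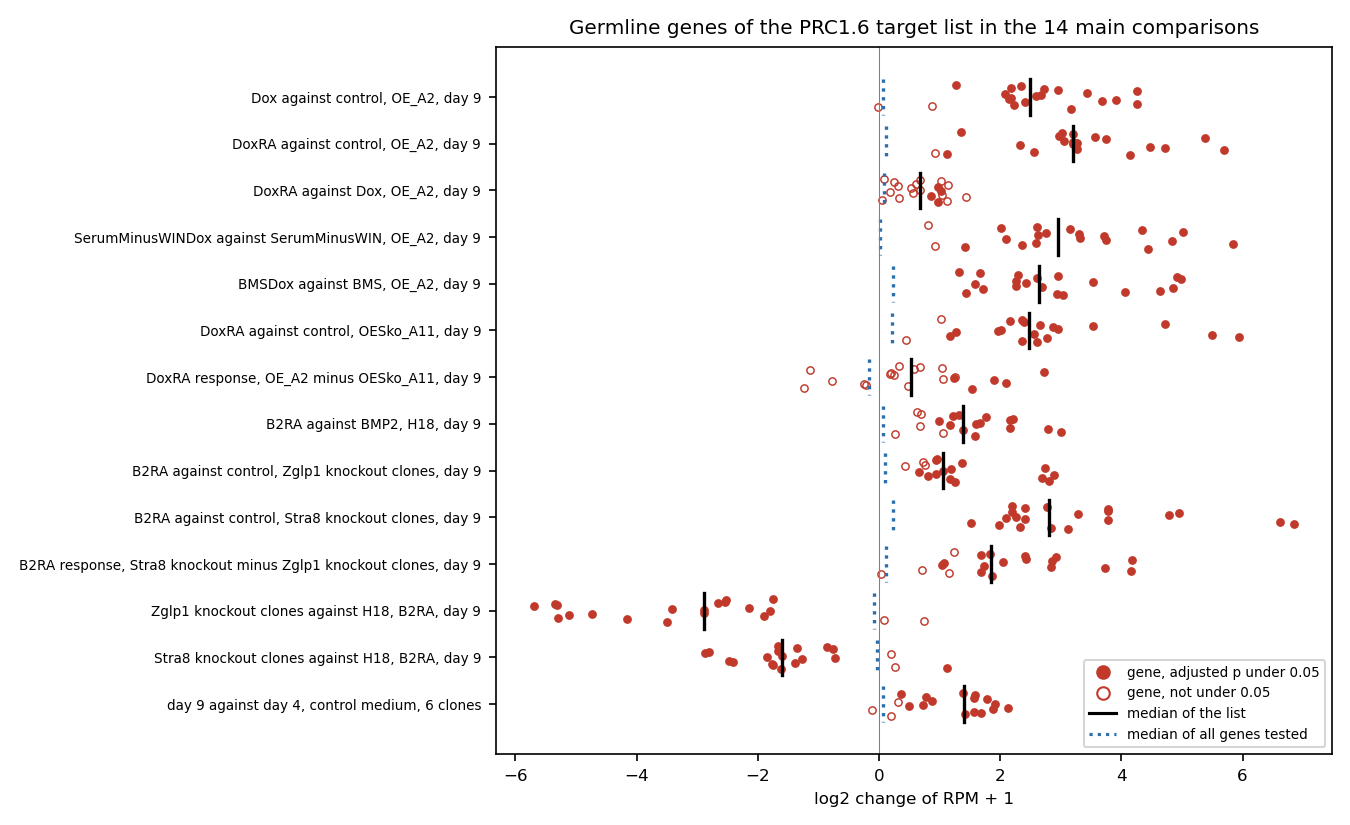
Change on the log2 scale of each of the 20 target genes in the 14 main comparisons, filled where the adjusted p is under 0.05, with a black bar for the list's median and a dotted blue line for the median of all genes. With Dox alone the list's median is 2.50 against 0.06 for all genes, and in the Zglp1-/- clones against H18 under B2RA it is -2.88 against -0.09.

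By Pearson's r across the 98 group means (each line's or clone's mean taken off, 9237 genes compared), the genes most like E2f6 were Cox7b (0.77), Dppa3 (0.76) and C1qbp (0.76). Dppa3 is the germ cell gene whose reporter was used to sort the cultured cells. Those most like Mga were Copb1 (0.83), Huwe1 (0.81) and Yes1 (0.81), and those most like Max were Exosc3 (0.86), Psmb7 (0.86) and Sec13 (0.83). L3mbtl2 was most like Imp4 (0.82), Rnf2 most like Dr1 (0.82), Eed most like Brix1 (0.82) and then Mtf2 (0.81), Ezh2 most like Mtf2 (0.73), Suz12 most like Canx (0.72), Ring1 most like Rps6kb2 (0.67) and Pcgf6 most like Chek1 (0.55). Among the 10 genes themselves, Ring1 ran against Eed (-0.54) and Ezh2 (-0.42). These values describe points that share clones, days and depth.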

How the data were processed

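RNA of 191 PGCLC and 3 embryonic libraries was sequenced from its 3' ends. The authors deposited RPM values, and for some columns a signal on the same RPM scale, relative to endogenous reads. The submitters' processing notes name cutadapt 1.9.1, TopHat2 2.1.0, Bowtie 1.1.2, SAMtools 1.3, HTSeq 0.9.1 and mm10. Whole reads were recovered from the RPM steps (all values within 0.05 of a whole read). Of the columns, 1 fits no labelled sample and was left out, and 3 shifted lines were realigned. Groups came from titles. The test was limma 3.58.1 (R 4.3.3, trend and robust) on log2(RPM + 1), for genes with at least 10 RPM in at least 2 libraries compared (12174 genes in the fit), Benjamini-Hochberg adjusted, clones of a genotype weighted equally. Alternatives were pseudocounts 0.5 and 5, no filter, TMM scaling, only the groups compared, a replicate block, edgeR 4.0.16 on recovered reads, a change of at least 1, and each library left out. The script was tested on simulated data. The 10 genes and all lists were chosen with earlier results of these data known. Each of the 93 replicate pairs differed beyond counting noise (chi-square over its degrees of freedom 1.62 to 59.9). Genes named from lists are the 2 largest rises and 2 largest falls past the threshold in a main comparison, and their values in other comparisons; Sycp3 and Hormad1 were named for their promoters. Differences in response between clones or media were chosen after values were seen.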

Additional observations from a re-analysis of the deposited data

Results flagged for a closer look

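The E2f6 response to DoxRA at day 9 differed between OE_A2 and OESko_A11 in the limma fit, by -1.57 on the log2 scale. E2f6 went from 24.8 and 25.5 RPM to 11.8 and 2.39 RPM in OE_A2, and from 32.3 and 23.6 RPM to 17.1 and 24.2 RPM in the Stra8-/- clone. Without the OE_A2 library of 3 reads the difference was -0.61 (adjusted p = 0.448). The L3mbtl2 response to B2RA at day 9 differed between the Stra8-/- and Zglp1-/- clones by 0.92, and by 0.66 (adjusted p = 0.119) without the second B2RA library of Zko_E5. The Ring1 response to B2RA differed between the clones Zko_E5 and Zko_G10 by -2.65 (SE 0.712, adjusted p = 0.0186, 3.43% of all genes), in a comparison chosen after its values were seen. It rests on 1 library of Zko_E5 with 0 Ring1 reads of 985914, where 3 reads would be 3.04 RPM, while the other B2RA library of that clone stood at 20.0 RPM and those of Zko_G10 at 23.6 and 21.5 RPM.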

How the results depend on the processing

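Of the 30 calls among 140 changes of the 10 genes, 4 held in every alternative run and 26 were lost in at least 1, counting the rule of a change of at least 1. The 4 were E2f6 in DoxRA against control, L3mbtl2 with B2RA in Zglp1-/- clones, and Mga in both knockouts against H18. Another 3 held in every refit but are under 1: Suz12 with B2RA in Stra8-/- clones, and L3mbtl2 and Suz12 at day 9 against day 4. Of the 110 other changes, 20 were gained in at least 1 refit, and no call reversed. Number of the 10 genes called: Dox against control 0, and 1 with only the groups compared. DoxRA against control 4, and 2 with only those groups or a change of at least 1. DoxRA against Dox 2, 1 with a change of at least 1, a pseudocount of 0.5 or no filter, and 0 with only those groups. Dox in WIN medium 3, and 0 with a change of at least 1 or only those groups. Dox in BMS medium 3, 1 with a change of at least 1, and 5 with TMM scaling. OESko_A11 1, 2 with a pseudocount of 5, the replicate block or only those groups, and 3 with TMM or edgeR. Response of OE_A2 minus OESko_A11 1, 3 with TMM and 0 with only those groups. H18 1, and 0 with only those groups. Zglp1-/- with B2RA 1, 2 with a pseudocount of 0.5 or edgeR, and 3 with TMM. Stra8-/- with B2RA 2, 0 with a change of at least 1, 1 with no filter, 4 with only those groups, and 6 with TMM or edgeR. Stra8-/- minus Zglp1-/- response 1, and 0 with a change of at least 1 or only those groups. Zglp1-/- against H18 3, and 1 with only those groups. Stra8-/- against H18 4, and 1 with a change of at least 1. Day 9 against day 4 4, and 0 with a change of at least 1. The cause was not tested, beyond fewer libraries in the fit where only the groups compared entered. Leaving out 1 library gave, in that order, 0 to 0, 2 to 4, 0 to 3, 0 to 2, 0 to 3, 0 to 1, 0 to 4, 0 to 1, 1 to 3, 1 to 2, 0 to 2, 2 to 4, 1 to 4 and 3 to 5. Of all genes, the calls ranged over the alternatives, in that order, 1755 to 4470, 4213 to 9072, 603 to 4280, 1437 to 4793, 1434 to 4809, 1198 to 4903, 1297 to 3711, 353 to 3800, 1075 to 3982, 2103 to 6639, 407 to 2003, 3730 to 8008, 2515 to 6059 and 1085 to 7530. TMM scaling moved the share of higher calls from 70.5% to 43.7% for Dox in BMS medium, 67.6% to 43.1% in OESko_A11, 27.5% to 41.2% for the response of OE_A2 minus OESko_A11, 63.5% to 39.8% and 72.0% to 44.5% for B2RA in Zglp1-/- and Stra8-/- clones, 76.6% to 56.4% for their difference, and 62.0% to 46.2% for day 9 against day 4. Whether replicate numbers pair the samples is not settled. Differences between replicates 1 and 2 correlated above 0.1 in 255 of 753 pairs of groups of a line. Per line, the median r was 0.0299 to 0.105 and the highest r 0.158 to 0.532. The replicate block gained 2 and lost 0 of the calls. At 0.192 to 1.14 RPM a read, E2f6 and Ring1 rest on few reads in their lowest libraries. The lowest day 9 values of L3mbtl2, Mga and Max rest on 21, 15 and 26 reads. For L3mbtl2 and Mga this is the second Zko_E5 library with B2RA, which had the fewest genes detected of all (11850).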
